A study of Mus musculus with 4 samples.

Results

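The genes described here are 10 carrier and uptake genes of the visceral endoderm, chosen by name from the 46603 genes of the deposited table, with 1 row for each gene. They are the plasma carriers Ttr, Afp and Rbp4, the apolipoproteins Apoa1, Apob, Apoe and Apom, and the uptake receptors Amn, Cubn and Lrp2. The study sequenced polyadenylated RNA of mouse embryonic stem cells, in 2 wild-type samples (Gsk3a+/+;Gsk3b+/+) and 2 samples without both genes of glycogen synthase kinase 3 (Gsk3a-/-;Gsk3b-/-). All 4 samples were grown with leukaemia inhibitory factor and 15% fetal bovine serum on irradiated mouse embryonic fibroblasts, so RNA of feeder cells can be part of each library. The labels give embryonic day 16 as the age, and the design text gives another value. The sources call the samples of a genotype biological replicates, and they do not say how the alleles were made, whether a genotype is 1 clone, or whether replicates are separate cultures. The p-values therefore measure only the spread between these samples. The table names its groups A and B without saying which genotype each one is, so each comparison sets group B over group A without a genotype.

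The visceral endoderm is the outer cell layer of the early embryo and its yolk sac, and it feeds the embryo before the placenta works. It secretes carriers that the liver makes later in life, such as transthyretin (Ttr), alpha-fetoprotein (Afp), the retinol carrier Rbp4 and the apolipoproteins that hold lipoprotein particles together. At its apical surface it takes up maternal protein through cubilin (Cubn), which amnionless (Amn) anchors in the membrane and brings to the cell surface, and through megalin (Lrp2), a large receptor of the low-density lipoprotein receptor family. Embryonic stem cells can give rise to endoderm cells in culture. Apoe is not restricted to endoderm, since macrophages and other cell types also make it.

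RefSeq start sites on the build GRCm38.p6 were matched by symbol for 9 of the 10 members, with 12 windows in all. Each window runs from 250 bases before to 50 bases after the start site. The bases before the start site are shown for Cubn, Amn and Lrp2, the receptor genes, which differed most between B1 and B2 among the members with a mean of at least 10, and for Afp, which had almost no reads. They lie at chr2:13491877-13492126 (minus strand), chr12:111270846-111271095 (plus strand), chr2:69586030-69586279 (minus strand) and chr5:90490464-90490713 (plus strand). Capitals mark exact matches, on either strand, to words that factors of endoderm or Wnt signalling can bind.

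Cubn: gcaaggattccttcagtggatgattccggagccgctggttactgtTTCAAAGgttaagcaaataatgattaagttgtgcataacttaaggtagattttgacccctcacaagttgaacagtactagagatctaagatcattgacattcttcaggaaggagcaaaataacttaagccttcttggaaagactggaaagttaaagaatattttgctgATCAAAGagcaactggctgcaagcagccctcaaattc
Amn: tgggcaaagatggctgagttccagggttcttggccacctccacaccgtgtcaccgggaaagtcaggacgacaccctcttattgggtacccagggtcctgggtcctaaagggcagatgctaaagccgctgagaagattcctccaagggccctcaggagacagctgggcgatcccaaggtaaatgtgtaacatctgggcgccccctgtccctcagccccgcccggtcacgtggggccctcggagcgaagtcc
Lrp2: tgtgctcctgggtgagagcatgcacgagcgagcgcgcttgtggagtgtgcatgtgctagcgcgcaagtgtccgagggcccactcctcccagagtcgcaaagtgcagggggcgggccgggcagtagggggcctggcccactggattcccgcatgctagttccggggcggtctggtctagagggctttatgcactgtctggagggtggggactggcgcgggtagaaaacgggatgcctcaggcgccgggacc
Afp: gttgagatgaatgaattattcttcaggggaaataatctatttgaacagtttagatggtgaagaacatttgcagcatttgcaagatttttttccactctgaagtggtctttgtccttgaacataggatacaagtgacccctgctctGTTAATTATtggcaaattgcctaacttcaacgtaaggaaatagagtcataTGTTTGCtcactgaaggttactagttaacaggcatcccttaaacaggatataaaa

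The word searched for HNF1 was GTTAATNAT. For FOXA it was TGTTTAC as well as the variant TGTTTGC or the variant TATTTAC, and for HNF4 it was CAAAGTCCA or else the form CAAAGGTCA. For GATA it was AGATAA or else the form TGATAA, and for TCF/LEF it was CTTTGAT or else the form CTTTGAA. Both strands were read, and words of different factors could overlap. Afp has the HNF1 word with its first base 105 bases before the start site, and a FOXA word 55 bases before it. Of all 32851 windows, 0.801% hold the HNF1 word and 11.2% a FOXA word, and among the members 5 genes hold a FOXA word (Afp, Apoa1, Apob, Apoe and Rbp4). Cubn has TCF/LEF words that begin 205 and 37 bases before its start site. Apob and Rbp4 hold a TCF/LEF word too, against 8.65% of all windows. A GATA word is in the window of Apoa1 alone among the members, 15 bases after its start site, against 18.6% of all windows. No member window holds an HNF4 word, which 0.95% of all windows do. Amn, Lrp2 and Apom hold none of the words searched. The upstream bases of Amn and Lrp2 are 61.2% and 66.4% G or C, those of Cubn and Afp 39.6% and 36%, and the median of all windows is 52.4%. These matches describe the letters only, since binding was not measured.

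Values per library were recovered from the group means and are given as normalized counts, that is, reads over the size factor of their library. The names A1, A2, B1 and B2 are names only and do not follow the labels' replicate numbers. The libraries hold 112655210 to 146326307 reads. Pluripotent cell markers were abundant in every library, with a summed normalized count of 10 genes between 797968 and 905859. The summed count of 14 fibroblast markers was 130282 in A1 and 60572 in A2, against 33539 in B1 and 189544 in B2, so the libraries of each group differed in it. Among the targeted genes, Gsk3a had normalized counts of 6353 in A1 and 7104 in A2, against 1697 in B1 and 1347 in B2 (log2 fold change -2.14, adjusted p 4.90e-24 in the authors' deposited table), and Gsk3b had 5438, 6285, 5051 and 5002 (-0.22, adjusted p 0.984 in the same authors' deposited table).

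None of the 10 carrier and uptake genes passed the threshold of the comparison between the groups, which asks what the loss of both kinase genes does to the transcriptome. The authors' deposited table gave an adjusted p of at most 0.05 to 0 of the 10 members, against 3.46% of the 30237 genes with a count, 1.54% higher and 1.92% lower in group B. At an unadjusted p under 0.05, that table held 2 members, Ttr and Apob, against 10.5% of all genes. A second test was limma on log2(normalized count + 1), over the 20465 genes averaging 10 or more, which leaves out Afp. It called 0 of the 9 members it could test, against 2.01% of genes, and at an unadjusted p under 0.05 it held 3 members (Ttr, Apob and Lrp2), against 20.7% of genes. It also called 0 members with a pseudocount of 10 (2.45% of genes), with no filter (1.36%) and with total-count scaling (2.19%). The median log2 fold change of the 10 members was -0.36 in the authors' deposited table, beside 0.0008 over all genes tested. For 1 member, Rbp4, each B library lay above each A library, which was so for 26.4% of genes averaging 10 or more. For 4 members, Ttr, Apob, Apom and Lrp2, both B libraries lay below both A libraries, against 26% of those genes. The groups overlapped for Afp, Apoa1, Apoe, Amn and Cubn. A p that misses the threshold does not show that a gene was equal in the groups.

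**Figure D1:**
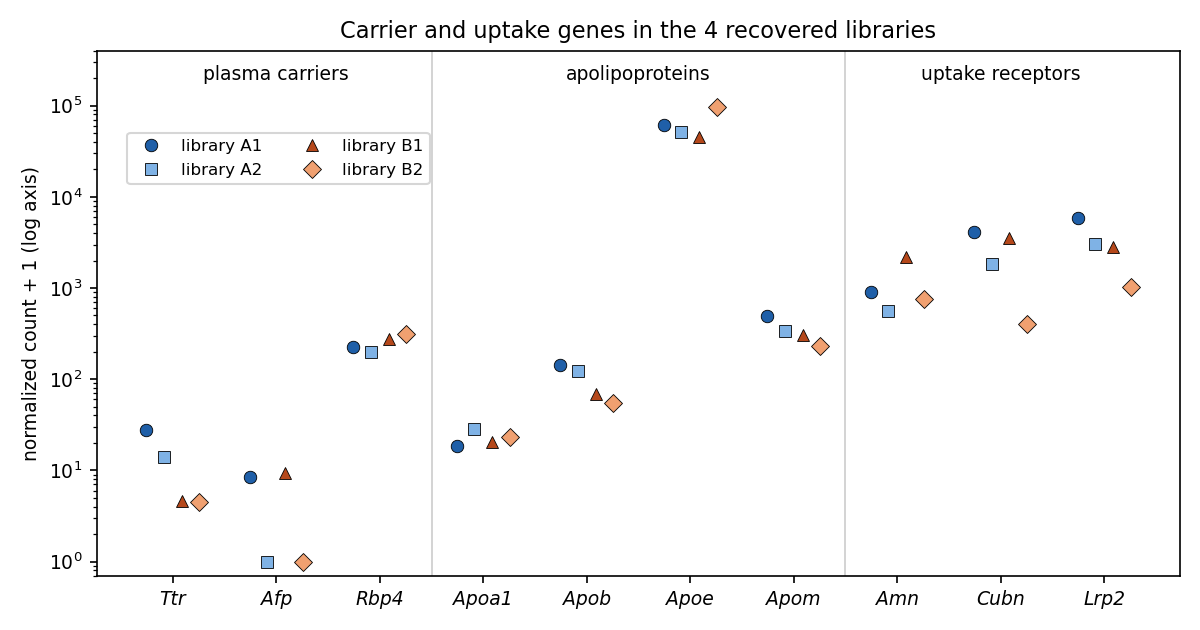
Normalized count + 1 of each member (log axis) in libraries A1, A2, B1 and B2, 1 symbol per library, with the members ordered by role. Apoe lies between 45652 and 97302 in all libraries, Afp has no read in A2 and B2, and Cubn in B2 lies far below its other libraries.

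Among the plasma carriers, Ttr and Afp were barely detected. Ttr (ENSMUSG00000061808), which carries thyroxine and holds the retinol carrier in the blood, had 29 reads in A1 and 13 in A2, against 4 in B1 and 3 in B2. Both A libraries had more reads than both B libraries. Summed over the libraries of a group, the ratio of B to A was 0.18, with an exact 95% interval of 0.0684 to 0.405 that covers counting error only. For Ttr the authors' deposited table gave a log2 fold change of -2.46, an unadjusted p of 0.0414 and an adjusted p of 0.429, and in limma it was -2.09 (SE 0.58, adjusted p = 0.126).

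Afp (ENSMUSG00000054932, chromosome 5, 90490737 to 90508907), the main serum protein of the fetus, had 8 reads in A1, 9 in B1 and 0 in A2 and in B2. A count of 0 allows up to 3 reads, of 134463318 in A2 and of 112655210 in B2. Each group thus held a library with reads and a library without, and the groups did not separate. With a mean of 3.91 over all libraries, Afp is near the limit of detection at this depth.

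Rbp4 (ENSMUSG00000024990, chromosome 19, 38116629 to 38125281), which brings retinol to cells, was the most abundant of the plasma carriers per kb of exon. Its normalized count was 223 in A1 and 199.7 in A2, against 275 in B1 and 310 in B2. The B libraries were both above those of group A, and libraries of the same group were close to each other. The log2 fold change was 0.47 with an adjusted p of 0.721 in the authors' deposited table, and 0.47 (SE 0.22, adjusted p = 0.308) in limma.

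The apolipoproteins differed widely in level, from 6.90 normalized counts per kb of exon for Apob to 29923 for Apoe. Apoe (ENSMUSG00000002985, chromosome 7, 19696109 to 19699188, GRCm38), a ligand of lipoprotein receptors, had a normalized count of 61753 in A1 and 51198 in A2, against 45652 in B1 and 97302 in B2. B1 was the lowest library and B2 the highest, so both A libraries lay between the libraries of group B. The log2 fold change was 0.34 with an adjusted p of 1 in the authors' deposited table, and 0.25 (SE 0.34, adjusted p = 0.740) in limma. Without B1 limma gave 0.79 (adjusted p = 0.0265), and without B2 it gave -0.30 (adjusted p = 0.204), so the library left in group B set the direction.

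Library B2, in which Apoe was 2.13 times its level in B1, also had the higher fibroblast markers. The markers of fibroblasts had the order of Apoe in 14 of 14 genes, with B2 above B1 and A1 above A2, with a median log2 ratio of -2.49 for B1 over B2 and 1.12 for A1 over A2. The ratios of Apoe were -1.09 and 0.27. The order was not particular to fibroblast markers. The parietal endoderm markers Thbd (702, 319, 184 and 674 in A1, A2, B1 and B2) and Plat (785, 345, 330 and 721), named after their values were seen, had it too. Of the 10 parietal endoderm markers, 8 had B1 above B2. For the orders within groups in this paragraph, no share over all genes is given. Of 15 macrophage markers 12 had B2 above B1 and 10 had A1 above A2, and their summed normalized count was 4440 in A1 and 4027 in A2, against 4581 in B1 and 5558 in B2. In 12 of the 15 each B library was above each A library, against 26.4% of genes. In the other 3 each B library was below each A library, against 26% of genes. Cd68, among these 3 and named after its values were seen, had 2748, 2458, 2128 and 1960 of the sums of A1, A2, B1 and B2. No macrophage marker was at 0 in all libraries. The part of these cells in the level of Apoe was not tested. In RNA of a mixed culture, fewer cells of a type cannot be told apart from less RNA per cell.

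Apob (ENSMUSG00000020609, chromosome 12, 7977648 to 8016835), the structural protein of very-low-density lipoproteins, was low in all libraries. Its normalized count was 143 in A1 and 121 in A2, against 66.9 in B1 and 54.4 in B2. Both B libraries were below both A libraries, and the libraries of a group differed by less than the groups did. The log2 fold change was -1.12 with an unadjusted p of 0.00718 and an adjusted p of 0.138 in the authors' deposited table, and -1.11 (SE 0.30, adjusted p = 0.1195) in limma. Apob had the lowest adjusted p of the members in the authors' deposited table and missed the threshold.

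Apom (ENSMUSG00000024391, chromosome 17, 35128997 to 35132050), a lipocalin of high-density lipoproteins that carries sphingosine-1-phosphate, had a normalized count of 491 in A1 and 337 in A2, against 308 in B1 and 229 in B2. The groups did not overlap, but A2 and B1 were close. Its log2 fold change was -0.62 with an adjusted p of 0.689 in the authors' deposited table. Apoa1 (ENSMUSG00000032083, chromosome 9, 46228580 to 46230466), the main protein of high-density lipoproteins, had 19 reads in A1 and 28 in A2, against 21 in B1 and 19 in B2. No group of Apoa1 stood apart (-0.12 on the log2 scale with adjusted p 1, authors' deposited table).

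Between B1 and B2 the uptake receptors differed more than any other member with a mean of at least 10. Cubn (ENSMUSG00000026726, chromosome 2, 13276338 to 13491813) had a normalized count of 4076 in A1 and 1829 in A2, against 3504 in B1 and 398 in B2. B2 was the low library, and B1 lay between the libraries of group A. Between B1 and B2 Cubn differed 8.79-fold, and 6 of the other genes among 16553 with a mean of at least 50 had a ratio of B1 over B2 at least as high. Counting both directions, 0.109% of the 16553 genes, Cubn included, differed at least as far between B1 and B2. The log2 fold change was -0.60 with an adjusted p of 1 in the authors' deposited table and -1.21 (SE 0.99, adjusted p = 0.550) in limma, and it was -2.77 without B1 (adjusted p = 0.0289) and 0.36 without B2 (adjusted p = 0.673). Exons of Cubn share 368 bases with Gm13270 on the other strand, a transcript with a mean of 10.9, and whether the counting used strand is not given in the sources used here.

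Lrp2 (ENSMUSG00000027070, chromosome 2, 69424340 to 69586065), the megalin gene, had a normalized count of 5888 in A1 and 3034 in A2, against 2833 in B1 and 1020 in B2. Both B libraries were below both A libraries, although A2 and B1 were close and each group spread widely. The log2 fold change was -1.21 with an adjusted p of 0.821 in the authors' deposited table and -1.31 (SE 0.53, adjusted p = 0.240) in limma. In limma it was -2.05 without B1 (adjusted p = 0.0369) and -0.58 without B2 (adjusted p = 0.391).

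Amn (ENSMUSG00000021278, chromosome 12, 111271095 to 111276426), the membrane partner of cubilin, had a fold change of the opposite sign to those of Cubn and Lrp2 in the fits with all libraries. Its normalized count was 912 in A1 and 553 in A2, against 2206 in B1 and 764 in B2. B1 was the high library, and B2 lay between the libraries of group A. The log2 fold change was 1.02 with an adjusted p of 1 in the authors' deposited table and 0.87 (SE 0.52, adjusted p = 0.404) in limma. Without B2 limma gave 1.63 (adjusted p = 0.0361) and without B1 0.11 (adjusted p = 0.881).

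Leaving out a library of group B thus decided what limma called among the members. Without B1 it called 3 of 9 members, Apoe higher and Cubn and Lrp2 lower, against 4.87% of genes. Without B2 it called Amn alone, higher, against 5.43% of genes. Without A1 or without A2 it called 0 members and also 0% of genes. In these fits the library left alone in its group is assumed to vary like the pair of the other group, and that pair differed less in group A (standard deviation of the log2 ratio over genes 0.340) than in group B (0.519).

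**Figure D2:**
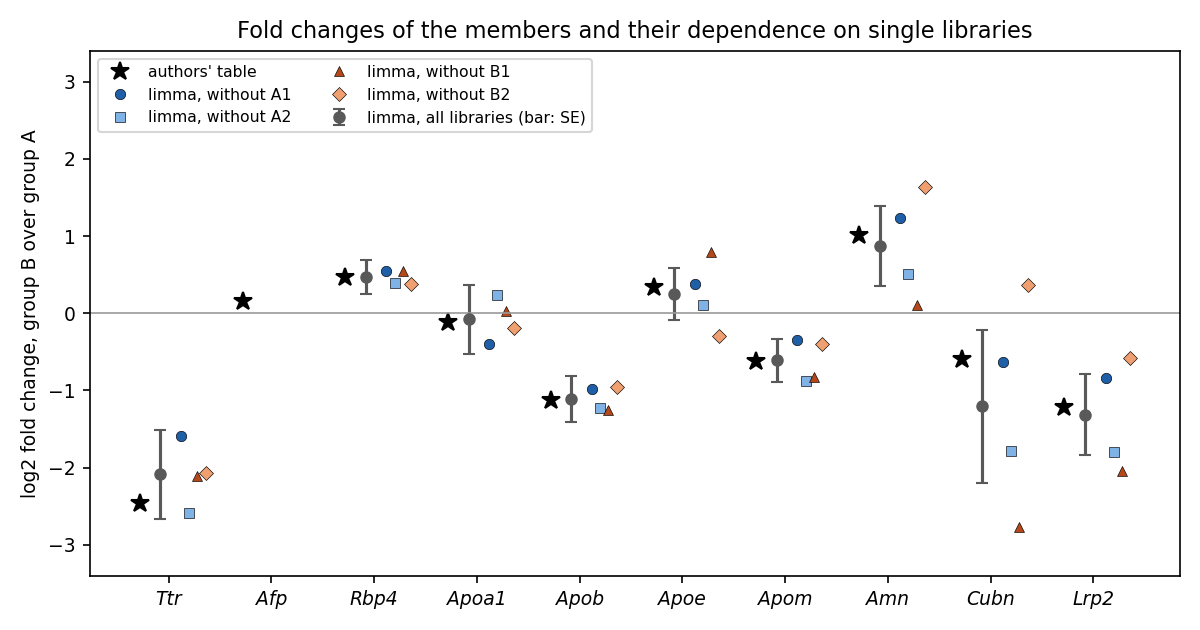
Log2 fold change of group B over group A for each member, from the authors' table (stars), from limma with all libraries (grey points, bars are the SE) and from limma without 1 library (coloured symbols). Apob, Apom, Ttr and Lrp2 stay below 0 and Rbp4 and Amn above 0 in each fit shown, while Apoe, Cubn and Apoa1 change sign.

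Within the groups 9 of the 10 members were higher in A1 than in A2 and 7 of the 10 in B1 than in B2. The shares of all genes with these orders are not given here. These 7 were Ttr, Afp, Apob, Apom and the receptor genes, and each of them was also higher in A1. For Ttr and Afp the order in group B rests on few reads, 4 and 3 for Ttr and 9 and 0 for Afp in B1 and B2. Cubn, Lrp2 and Amn were each higher in A1 than in A2, by 2.23, 1.94 and 1.65 times, and higher in B1 than in B2, by 8.79, 2.78 and 2.89 times. The ratios of A1 over A2 and of B1 over B2 were 2.08 and 1.03 for Ttr, 1.18 and 1.23 for Apob, and 1.46 and 1.34 for Apom. The adaptor Dab2, which links megalin to the clathrin coat and was named after its values were seen, had the same order, with normalized counts of 3522, 1593, 6499 and 2472 in A1, A2, B1 and B2. Over the 15 endocytosis partners averaging 10 or more the median log2 ratios were 0.04 and 0.13, with 9 genes higher in A1 and 11 in B1. Of the 12 endoderm transcription factors with a mean of at least 10, 8 were higher in A1 than in A2 and 10 in B1 than in B2. Their median log2 ratios were 0.36 for A1 over A2 and 1.01 for B1 over B2, beside 0.96 and 1.53 for the receptor genes. Fibroblast markers had the same order in group A and the opposite order in group B. With 2 libraries a group these orders are a description only.

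**Figure D3:**
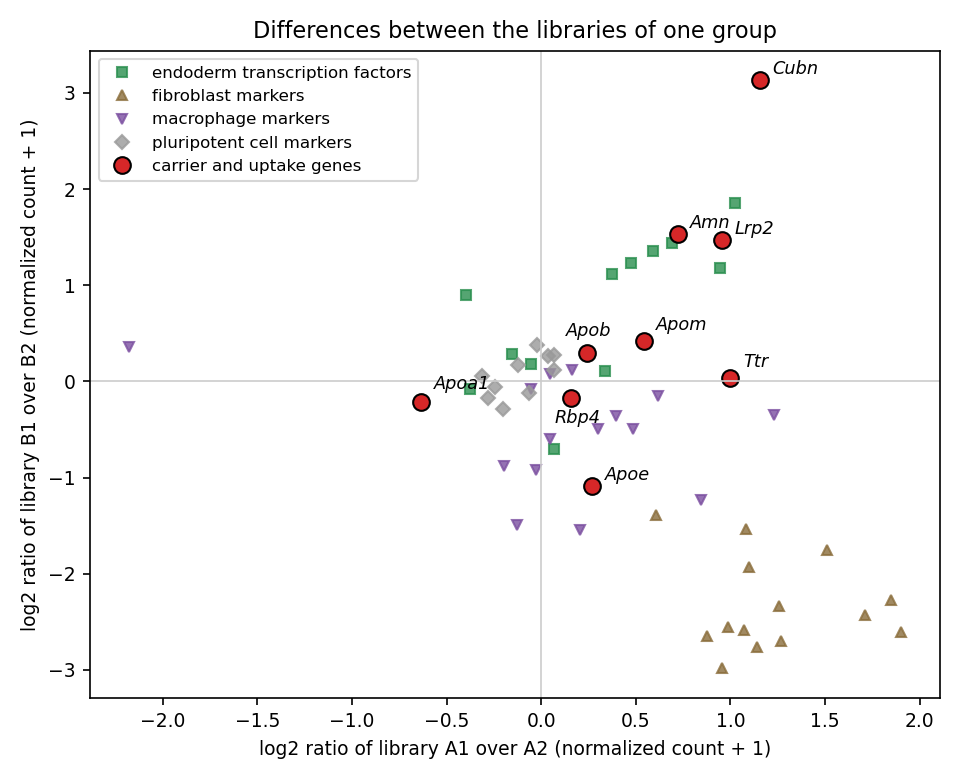
Log2 ratio of A1 over A2 (horizontal) and of B1 over B2 (vertical) on normalized count + 1, for the 9 members with a mean of at least 10 (labelled red points) and 4 marker lists. Cubn, Amn and Lrp2 lie at the upper right with several endoderm transcription factors, and Apoe lies at the lower right on the side of the fibroblast markers.

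Endoderm transcription factors switch on carrier genes in the visceral endoderm and liver. Of the 12 measured, 1 was higher and 0 lower in the authors' deposited table, against 1.54% and 1.92% of genes. In 8 of the 12 each B library was above each A library, against 26.4% of genes. Foxa1 had a normalized count of 23.0 in A1 and 30.7 in A2, against 270 in B1 and 144 in B2 (2.95 on the log2 scale with adjusted p 0.0192, authors' deposited table). Gata6, named here after its values were seen, is an early factor of the extraembryonic endoderm, and it had 744, 535, 8215 and 3503 (3.20, adjusted p 0.117, authors' deposited table). Sox17, chosen in the same way, had 271, 140, 3231 and 1427 (3.50, adjusted p 0.0652, authors' deposited table). In limma Foxa1, Gata6 and Sox17 passed, with adjusted p values of 0.0406, 0.0340 and 0.0365, against 2.01% of all genes. Hnf4a, the regulator of many apolipoprotein genes, also named after its values were seen, had 1826, 1445, 1529 and 1423, with B1 between A1 and A2. Over genes averaging 10 or more, the median log2 fold change was 2.37 for these factors, -0.60 for the 9 carrier and uptake genes and 0.01 for all genes in the authors' deposited table, and the difference between the lists was not tested.

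Levels of different genes were compared per kilobase of exon. Apoe had 29923 normalized counts per kb over all libraries, and 1.43% of the 29993 genes with a length were higher. It was followed by Amn with 601, Apom with 337, Lrp2 with 191, Rbp4 with 188 and Cubn with 164 normalized counts per kb. Neighbours among these 5 overlapped when the ranges over libraries were compared, so their order is not firm. Apoa1 with 17.6, Ttr with 9.86 and Apob with 6.90 normalized counts per kb formed a lower tier and overlapped in the same way. Afp came last with 1.16, below the lowest library of Apob. Ranges did not overlap between Apoe and Amn, between Cubn and Apoa1, or between Apob and Afp.

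The chromosomal neighbours of the members, named here after their values were seen, had levels of their own. Apoe lies 3448 bases from Apoc1, and 14629 and 18167 bases from Apoc4 and Apoc2. Apoc1, an apolipoprotein that is also made with Apoe in many cells, had 4514 normalized counts per kb, while Apoc4 had 3.74 and Apoc2 had 35.4. Unlike Apoe, Apoc1 was even across the libraries, with a normalized count of 3730 in A1 and 3355 in A2, against 3269 in B1 and 3081 in B2. Apoa1 lies 2466 bases from Apoc3, which had 0.583 normalized counts per kb, and 10229 bases from Apoa4, which had 4.15. Apoa4 had 0 reads in A1 and A2, 29 in B1 and 3 in B2, so its reads came almost wholly from B1. Afp lies 14134 bases from Alb, the albumin gene, which had 3, 3, 0 and 2 reads in A1, A2, B1 and B2, and 10024 bases from Afm, which had no read. Within 141 bases of Apom, on the other strand, lies D17H6S53E, with a normalized count of 334, 231, 641 and 401.

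**Figure D4:**
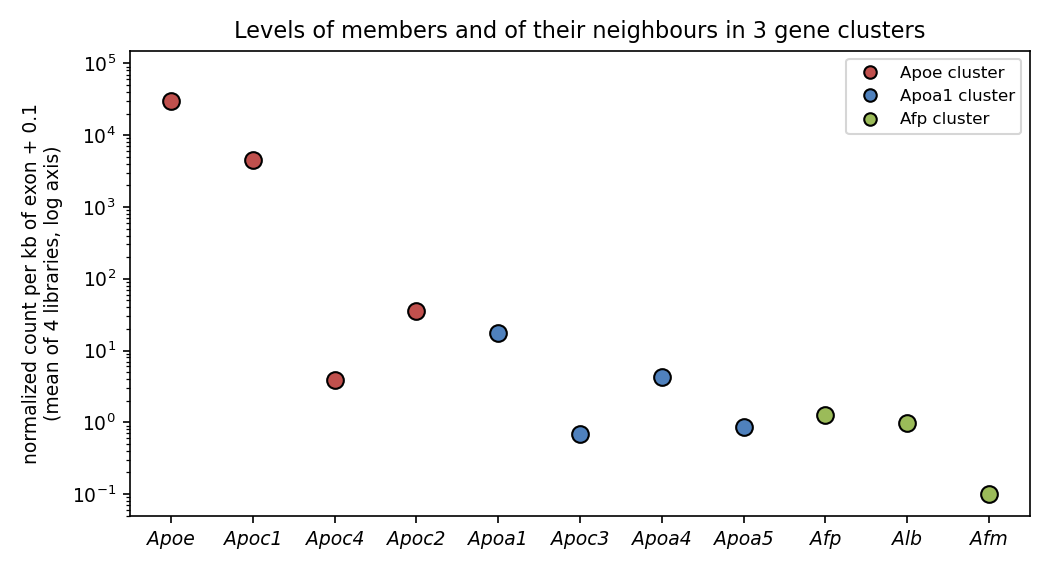
Normalized count per kb of exon + 0.1 (mean of the 4 libraries, log axis) of Apoe, Apoa1 and Afp and of the apolipoprotein and albumin family genes within 50 kb of each. Apoe (29923) and Apoc1 (4514) stand far above Apoc2 (35.4) and Apoc4 (3.74) of the same cluster, and Afp (1.16) lies near Alb (0.864) and the low Apoa5 (0.756) and Apoc3 (0.583).

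Of 23 other carriers and apolipoproteins with a count, 1 was higher and 0 lower in group B in the authors' deposited table. Over all genes 1.54% were higher and 1.92% lower. Of the 23, 11 had a mean of at least 10. Ahsg, the fetuin-A gene of fetal liver and serum, had a normalized count of 263 in A1 and 197 in A2, against 708 in B1 and 521 in B2 (1.42 on the log2 scale with adjusted p 0.00232, authors' deposited table). In limma it gave 1.41 (SE 0.26, adjusted p = 0.0602), which missed the threshold. Among 8 mature hepatocyte markers 2 had a mean of at least 10, Cps1 and Cyp2e1, and 0 passed (0 at an unadjusted p under 0.05, and 0 in limma). Over all genes these shares were 3.46%, 10.5% and 2.01%.

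Of 19 genes that assemble, remodel or bind lipoproteins, 1 was higher and 1 lower in the authors' deposited table and also in limma. Over all genes the table called 1.54% higher and 1.92% lower, and limma called 2.01%. Pltp, which moves phospholipid between lipoproteins, had a normalized count of 3934 in A1 and 4070 in A2, against 8758 in B1 and 11377 in B2 (1.33, adjusted p 0.000203, authors' deposited table). Sort1, a sorting receptor that binds apolipoprotein B, had 1969, 2638, 601 and 864 (-1.65, adjusted p 0.000221, authors' deposited table). The groups did not overlap for Pltp and Sort1. In the list 4 genes had group B wholly above group A and 4 wholly below, against 26.4% and 26% of genes. Mttp, which loads lipid onto apolipoprotein B and was named after its values were seen, had 800, 642, 668 and 596.

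Of 16 measured partners of the uptake receptors, 2 were higher and 1 lower in the authors' deposited table, against 1.54% and 1.92% of genes. Tcn2, the carrier of vitamin B12 in blood, had a normalized count of 2702 in A1 and 2178 in A2, against 4281 in B1 and 4358 in B2 (0.82 on the log2 scale with adjusted p 0.00114, authors' deposited table). Myo6, the motor of endocytic vesicles that binds Dab2, rose by 0.78 on the log2 scale in the authors' deposited table, with an adjusted p of 0.00357. There the clathrin light chain Cltb fell by 1.35, with an adjusted p of 3.57e-10. Limma called Cltb and not Tcn2 or Myo6 (adjusted p = 0.0255, 0.0551 and 0.0622), and over all genes it called 2.01%. Lrpap1, the chaperone of megalin, named after its values were seen, had 18228, 14186, 50389 and 28313 (1.28 on the log2 scale with adjusted p 0.332, authors' deposited table).

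Of 20 genes of retinol uptake, storage, oxidation and signalling, 0 passed in the authors' deposited table (3.46% of all genes), 7 had an unadjusted p under 0.05 (10.5%), and limma called 1 (2.01%). That gene was Stra6, the cell-surface receptor of Rbp4, named after its values were seen. Its normalized count was 75.5 in A1 and 66.2 in A2, against 6733 in B1 and 1192 in B2, with a log2 fold change of 5.80 and an adjusted p of 0.330 in the authors' deposited table, and 5.30 (SE 0.76, adjusted p = 0.0404) in limma. The groups did not overlap, and B1 was 5.65 times B2. The retinoic acid receptor Rarg had 11867, 14039, 10327 and 8016, and the retinol dehydrogenase Rdh11 had 4527, 4123, 3844 and 3741, and these had the highest mean normalized counts of the list.

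Of 10 parietal endoderm markers, 0 passed in the authors' deposited table, 4 had an unadjusted p under 0.05 (10.5% of all genes), and in 7 each B library was above each A library (26.4% of genes). Limma called 1 of them, Lama1, a laminin chain of the basement membrane (1.83, SE 0.25, adjusted p = 0.0373), against 2.01% of genes. The most abundant by normalized count were Sparc (log2 fold change 0.91, adjusted p 0.353) and Lamc1 (0.20, adjusted p 1) in the authors' deposited table. Of 9 definitive endoderm markers, 0 passed in either test and 0 had an unadjusted p under 0.05 in the table, where Trh (-0.15, adjusted p 1) and Eomes (1.04, adjusted p 0.522) had the most reads. Of 15 macrophage markers, 3 were higher (Spi1, Lyz2 and Ptprc) and 1 lower (Mrc1) in the authors' deposited table, and limma called 2, both higher. Over all genes the table called 1.54% higher and 1.92% lower, and limma called 2.01%. Fibroblast markers had 0 of 14 called in either test and 0 at an unadjusted p under 0.05 in the table. Of 10 pluripotent cell markers, 2 were lower (Utf1 and Lin28a) and 0 higher in the authors' deposited table, and limma called 1, lower. In 6 of the 10 each B library was below each A library, against 26% of genes, and in 0 each was above, against 26.4%.

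Leaving out members and genes named as predicted, as a clone or as a pseudogene, the genes whose profile over the 4 libraries was nearest to the median profile of the 7 members with a mean of at least 50 were Smc1b, Ptgs1, Snord55, Mybpc1, Arl14epl, Zfp512b, Cort and H2-Q6. Their root mean square difference from it was 0.0554 to 0.0794 on the log2 scale. Apom lay at 0.0870, and Cubn (0.984), Amn (0.772), Apoe (0.718), Rbp4 (0.582), Lrp2 (0.524) and Apob (0.334) lay farther away, while 712 genes lay within 0.25. The median profile was thus close to 1 member of the 7.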

How the data were processed

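Polyadenylated RNA was sequenced in 4 samples from stranded TruSeq libraries, per the labels' protocols. The submitters' processing notes name STAR, DESeq and mm10. Counter, strand setting, annotation and filters have no entry in those notes. The authors deposited 1 table with the signal of each gene as a mean normalized count per group, its ratio (fold change), its log2 fold change and a p-value with its adjusted p-value, per the file headers. The 5 repeated rows of 46608 were used once. Members and lists were chosen with earlier results of these data known.

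The authors' test was used as deposited, at an adjusted p of 0.05, as the table holds no value per sample. A group mean is the sum of whole reads of 2 libraries times 2 steps, and whole reads came back within 1e-06 for each of 28616 group A genes and 28353 group B genes above 0. A second pair also lay within it for 1700 and 11 genes, and the closest pair was taken. Recovered counts were tested with limma 3.58.1 in R 4.3.3, two-sided, with a mean-variance trend and Benjamini-Hochberg adjustment, after checks on simulated data. The simulation gave both groups the same spread between libraries and planted fold changes in abundant genes only. It therefore does not cover the unequal spread of the groups here, or fold changes of low genes. Fold changes on log2(value + 1) understate those of low genes. Exon lengths and positions are from GENCODE M21 (GRCm38). The named genes were the members, Gsk3a, Gsk3b, up to 4 called genes of each of 11 lists (or the 2 most abundant), and the 8 nearest profiles. The text marks other names. Intervals cover counting error only. Alternatives were other thresholds, a pseudocount of 10, no filter, total-count scaling and leaving out each library.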

Additional observations from a re-analysis of the deposited data

How the results depend on the processing

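The call of 0 members held at authors' adjusted p thresholds of 0.01 and 0.1 and in limma with all libraries, a pseudocount of 10, no filter or total-count scaling, and it ranged from 0 to 3 when 1 library was left out. The count of all genes, 1047, was 674 at 0.01, and in limma 411, 501 with a pseudocount of 10, 412 with no filter, 448 with total-count scaling and 0 to 1111 without 1 library. The median log2 fold change of the members moved from -0.36 to -0.61 in limma, -0.60 with a pseudocount of 10, -0.63 with total-count scaling, -0.88 without A2 and -0.82 without B1, in a range up to -0.30. These fits leave out Afp, and the authors' median without it is -0.60. Of 73 log2 fold changes of single members under an alternative, 65 kept direction and side of the threshold, and those that changed came from leaving out a library. Apoa1 turned to 0.24 without A2 and 0.026 without B1 (range -0.40 to 0.24), Apoe to -0.30 without B2 (range -0.30 to 0.79) and Cubn to 0.36 without B2 (range -2.77 to 0.36). Amn ranged from 0.11 to 1.63 and Lrp2 from -2.05 to -0.58. The cause was not tested. No paired analysis was possible because the recovered libraries carry no replicate number of the labels. Depth limits Ttr, Afp and Apoa1, with at most 29 reads in a library.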

Other observations

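Among genes averaging at least 50, those that exceeded the ratio of B1 over B2 of Cubn were Oas2, D13Ertd608e, Usp18, Rtp4, Gm10696 and Irgm1, named after their values were seen. Oas2, an interferon-induced enzyme, had a normalized count of 772 in A1 and 765 in A2, against 4071 in B1 and 168 in B2. Irgm1, an interferon-induced GTPase, had 402, 187, 4753 and 515. Usp18, which removes the interferon-induced modifier ISG15, had 81.1, 45.5, 1148 and 92.2. In these 3 genes and in Rtp4 B1 was the highest library, while Cubn was highest in A1. D13Ertd608e (144, 85.0, 72.4 and 4.73) and Gm10696 (134, 43.5, 47.7 and 3.55) were highest in A1 and lowest in B2, as Cubn was.

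By a measure chosen after seeing the data, the profiles nearest to that of Cubn alone over the 4 libraries, leaving out members and genes named as predicted, as a clone or as a pseudogene, were those of Tdpoz4, Usp17le, Tex40, Tfec, Sp110, Usp17lc, Cpne4 and Mir124a-1hg, at root mean square differences of 0.341 to 0.662 on the log2 scale. Among the members Lrp2 lay at 0.594, nearer than the last 3 of these, and Amn at 1.19. None of these 8 genes was among the 8 nearest to the median profile of the members. Tdpoz4 had a normalized count of 147 in A1 and 52.4 in A2, against 66.9 in B1 and 11.8 in B2, and Usp17le had 350, 192, 186 and 36.7. Genes of the Tdpoz and Usp17l families have near-identical copies, so their counts are uncertain.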
